A study of Mus musculus with 16 samples.

Results

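Tcf7, Lef1, Bach2, Id3, Satb1, Il7r and Foxo1 are 7 regulators of naive and stem-like T cells, chosen by name from 24469 gene symbols, with all entries of a symbol summed. They were followed in the 8 libraries of sorted CD8+ cells and in the CD4 T cells of the 8 libraries of sorted CD45+ cells. The study placed MC38 colon carcinoma in female C57BL/6 Aire+/+ or Aire−/− littermates, 8 weeks old, and gave them anti-PD1 or an isotype antibody at 5 mg/kg. Tumors and spleens were taken on day 19, and cells were sorted and profiled by droplet single-cell RNA sequencing. For flow cytometry the study dissociated tumors with enzymes and spleens mechanically, so preparation may differ along with tissue. The part of preparation in the tissue contrasts was not tested and cannot be told apart from tissue. The 4 groups were Aire+/+ with isotype (WT isotype), Aire+/+ with anti-PD1 (WT anti-PD1), Aire−/− with isotype (KO isotype) and Aire−/− with anti-PD1 (KO anti-PD1), and values below follow this order. Tumors of 4 to 6 mice per condition were pooled, as were spleens, and each condition has 1 library per tissue and sort. Differences between conditions therefore have no replicates, cells are not replicates, and every interval given is a 95% interval that covers counting error only.

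Naive T cells are held in a quiescent, recirculating state by a small set of transcription factors, and a stem-like group of antigen-experienced CD8 cells keeps parts of that program under chronic stimulation. TCF-1, the product of Tcf7, and LEF-1 bind the same DNA core and need partners such as β-catenin or Groucho proteins, while FOXO1 drives homing and survival genes until AKT moves it out of the nucleus. BACH2 competes with AP-1 factors at effector genes, ID3 blocks E proteins, SATB1 organizes chromatin loops, and the IL-7 receptor α chain encoded by Il7r carries the survival signal of IL-7. AIRE acts in the thymus, where it drives the display of tissue-restricted antigens to developing T cells.

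Levels are given in CPM, the UMIs (unique transcript molecules) of a gene per 1e6 UMIs of the same cells. The tumor CD8+ libraries held 1858 to 2684 cells and 22414026 to 35163283 UMIs, with a median of 8883 to 11163.5 UMIs per cell. The spleen CD8+ libraries held 2339 to 2944 cells and 15590033 to 20126142 UMIs, with a median of 5801 to 6405 UMIs per cell. CD4 T cells numbered 112, 96, 46 and 78 in tumor and 85, 107, 169 and 162 in spleen, with 439945 to 1047578 UMIs per group in tumor and 514362 to 908645 in spleen. Between 2 and 18 cell barcodes were shared by any pair among the 120 pairs of the 16 libraries.

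The knockout gene could not check the genotype labels, since Aire gave 6, 3, 1 and 0 UMIs in the tumor CD8+ libraries and 0 in each spleen CD8+ library. Cd8a, a chain of the CD8 co-receptor, stood at 1304, 1419, 1503 and 1464 CPM in the tumor CD8+ libraries, and Cd4 at 9.58, 5.62, 4.73 and 3.70 CPM. In the tumor 94.9%, 97.0%, 96.9% and 98.9% of cells had a UMI of Cd8a or Cd8b1 and a UMI of a Cd3 gene, so the sort label held. Pdcd1, which encodes PD-1, stood at 625, 919, 758 and 774 CPM in tumor and at 4.32, 5.06, 5.45 and 6.70 CPM in spleen. CD4 T cells were called by a UMI of Cd4, at least 2 UMIs of Cd3 genes and no Cd8 UMI. Of these, 82.1%, 63.5%, 52.2% and 60.3% had a UMI of Foxp3, the regulatory T cell factor, in tumor, and 21.2%, 19.6%, 17.2% and 21.0% in spleen.

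Marker genes of other cells were unevenly spread over the tumor CD8+ libraries. The macrophage list (6 of 6 genes, none at 0, led by C1qb) summed to 79.3, 116, 196 and 75.7 CPM, the tumor or stromal list (6 of 6 genes) to 13.3, 9.98, 104 and 7.09 CPM, and the plasmacytoid dendritic cell list (3 of 3 genes, none at 0) to 264, 134, 125 and 40.4 CPM. The KO isotype tumor library stood apart by its macrophage and stromal genes, the latter led there by Col1a1 at 68.0 CPM, while Krt8 was at 0 in each tumor library and Col3a1 at 0 under anti-PD1. In the spleen the macrophage list summed to 1.64, 2.30, 0.898 and 3.99 CPM, and the erythroid list (3 genes, led by Hbb-bs) to 200.3, 3.70, 1.60 and 21.9 CPM. The B cell gene Cd79b stood at 5.35, 4.58, 3.48 and 4.25 CPM in tumor and at 32.9, 29.5, 34.4 and 38.9 CPM in spleen. The dendritic cell list (4 genes, none at 0, led by Flt3 in tumor and Clec9a in spleen) summed to 17.7, 13.9, 6.38 and 2.41 CPM in tumor and to 56.4, 30.9, 19.2 and 31.3 CPM in spleen, so the list and Cd79b had higher values in spleen. The part of these cells in the levels below was not tested except where values from gated cells are given.

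TCF-1 and LEF-1, the paired DNA-binding factors of the naive program, were the members with the widest gap between the tissues in the CD8+ libraries. Tcf7 stood at 22.2, 15.2, 21.1 and 20.3 CPM in tumor and at 303, 309, 288 and 309 CPM in spleen. Lef1 stood at 19.96, 14.7, 19.99 and 20.9 CPM in tumor and at 416, 479, 450.4 and 464 CPM in spleen. For both genes the 4 tumor libraries lay far below the 4 spleen libraries, and the WT anti-PD1 tumor library was the lowest, with a counting interval (13.8 to 16.7 CPM for Tcf7, 13.3 to 16.3 for Lef1) below those of the other 3, which overlapped one another. Tcf7 was 16.5-fold lower in tumor (log2 −4.05, SE 0.12, adjusted p = 7.1e-07, lower in 4 of 4 conditions) by edgeR's quasi-likelihood test with Benjamini-Hochberg adjustment, which blocks on condition. Lef1 was 25.7-fold lower by edgeR's quasi-likelihood test (log2 −4.68, SE 0.13, Benjamini-Hochberg adjusted p = 6.3e-07, 4 of 4 conditions).

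The same contrast was seen in a second sort, in CD8 T cells called by their markers in the CD45+ libraries. There Tcf7 stood at 23.9, 26.5, 18.9 and 23.7 CPM in tumor and at 362, 307, 269.5 and 352 CPM in spleen, from 126 to 679 tumor cells and 135 to 185 spleen cells. Lef1 stood at 29.7, 27.5, 18.5 and 24.2 CPM in tumor and at 412, 450.5, 468 and 519 CPM in spleen. For both genes the tumor and spleen groups were again far apart, but the WT anti-PD1 library was not the lowest in this sort.

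Bach2, Id3 and Satb1, which encode a repressor, an E protein inhibitor and a chromatin organizer, also ran lower in tumor. Bach2 stood at 6.63, 7.76, 7.09 and 6.10 CPM in tumor CD8+ libraries and at 19.5, 25.7, 26.2 and 21.0 CPM in spleen. Id3, the E protein inhibitor, stood at 12.0, 8.72, 15.1 and 9.15 CPM in tumor and at 73.7, 71.2, 65.6 and 89.7 CPM in spleen. Satb1 stood at 63.9, 62.2, 68.5 and 61.7 CPM in tumor and at 176, 192, 172 and 159 CPM in spleen. None of these 3 genes had a tumor library within the range of its spleen libraries. Among tumor libraries the counting intervals of Bach2 overlapped throughout, those of Satb1 were apart only for KO isotype over KO anti-PD1, and Id3 was highest in the KO isotype library, which also held the most macrophage RNA. Tumor levels were 3.57-fold lower for Bach2 (log2 −1.83, SE 0.08), 7.21-fold lower for Id3 (log2 −2.85, SE 0.18) and 2.92-fold lower for Satb1 (log2 −1.54, SE 0.07). In edgeR's quasi-likelihood test their Benjamini-Hochberg adjusted p-values were 2.8e-06, 1.4e-05 and 4.1e-06, with tumor lower in 4 of 4 conditions for each.

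Il7r and Foxo1, a receptor and the transcription factor known to drive it, showed smaller gaps. Il7r stood at 231, 291, 267 and 238 CPM in tumor and at 475, 487, 452 and 517 CPM in spleen. Foxo1 stood at 52.5, 57.6, 63.6 and 64.7 CPM in tumor and at 161, 153, 144 and 148 CPM in spleen. The tissues did not overlap for either gene. In tumor the counting intervals of Il7r set WT anti-PD1 above KO isotype and both above the other 2 libraries, and those of Foxo1 set WT isotype below both KO libraries and WT anti-PD1 below KO anti-PD1. Il7r was 2.02-fold lower in tumor by edgeR's quasi-likelihood test (log2 −1.01, SE 0.07, Benjamini-Hochberg adjusted p = 2.1e-05, 4 of 4 conditions). Foxo1 was 2.73-fold lower by edgeR's quasi-likelihood test (log2 −1.45, SE 0.09, Benjamini-Hochberg adjusted p = 1.4e-05, 4 of 4 conditions).

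All 7 members passed the count filter, and 7 of 7 were lower in tumor CD8+ libraries at an adjusted p under 0.05, where 38.5% of the 11791 genes tested were lower, 36.6% were higher and 75% were called in either direction. The median log2 change was −1.83 over the members and −0.03 over all genes tested. Tumor cells held more UMIs than spleen cells, so counting UMIs per cell instead raised the median of all genes to a log2 of 0.93 and the share of called genes that were lower fell from 51.3% to 9.11%. On that scale the 7 members still had negative changes, of −3.09 for Tcf7, −3.73 for Lef1, −0.87 for Bach2, −1.89 for Id3, −0.59 for Satb1, −0.06 for Il7r and −0.49 for Foxo1. Il7r lost its call on that scale (adjusted p = 0.60, edgeR's quasi-likelihood test, Benjamini-Hochberg, log2 −0.06), with 3.03, 3.54, 3.23 and 2.51 UMIs per cell in tumor and 3.30, 3.17, 3.01 and 3.20 in spleen.

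**Figure D1:**
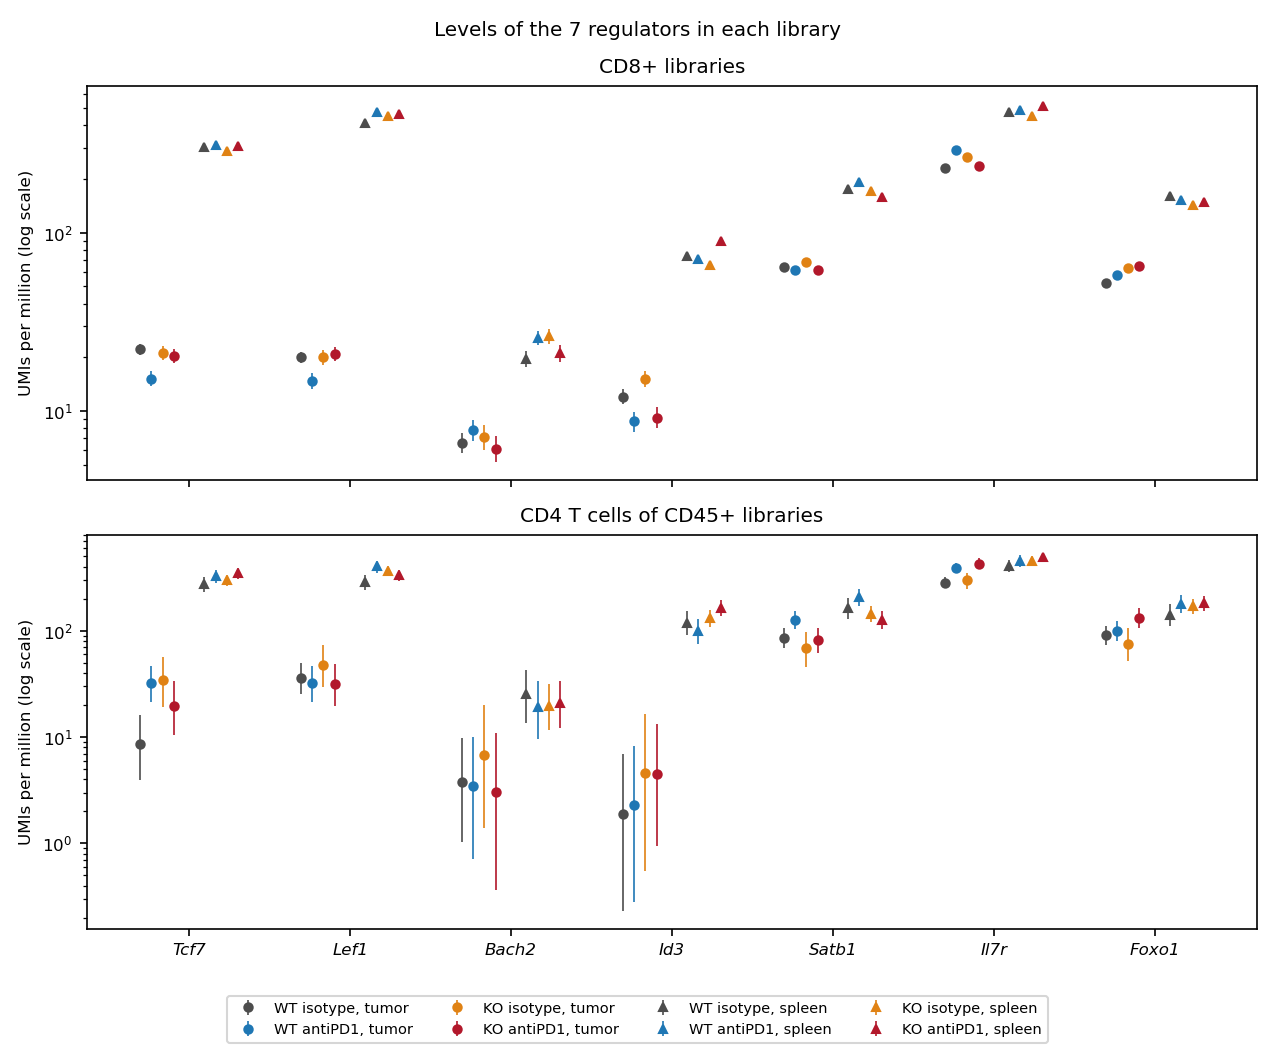
Level of each of the 7 genes in CPM on a log axis, in the CD8+ libraries (top) and in CD4 T cells of the CD45+ libraries (bottom), with circles for tumor, triangles for spleen, a color per condition (WT for Aire+/+, KO for Aire−/−) and bars for the 95% Poisson interval of the count. In the CD8+ libraries the 4 tumor points of each gene lie below its 4 spleen points, as for Tcf7 at 15.2 to 22.2 against 288 to 309.

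Genes of the pathways around the members moved both ways between the tissues in the CD8+ libraries, and each list count below stands beside 38.5% of all genes lower and 36.6% higher. Of 14 naive homing and quiescence genes, 10 were lower and 3 higher in tumor (median log2 −1.81), with Igfbp4 at −4.48 and Klf3, a quiescence factor, at −3.83, and the antiproliferative genes Btg2 at 2.10 and Btg1 at 0.65. Of 17 TCF/LEF partners and Wnt pathway genes, 11 were lower and 2 higher (median −0.53), among them the β-catenin adaptors Bcl9 at −2.96 and Bcl9l at −2.34, with Tcf7l2 at 0.89 and Aes, a Groucho family gene, at 0.19. The median changes of both lists lay below that of all genes, −0.03, while Aes and Tcf7l2 were past the threshold in the other direction.

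Of 17 FOXO pathway genes and targets, 11 were lower and 2 higher in tumor (median log2 −0.54). The lower genes were led by Pik3ip1, a PI3K inhibitor, at −4.21 and Sesn1 at −3.60, and the higher genes were Irs2 at 2.86 and the kinase Akt1 at 0.76. IL-7 receptor signaling genes were near those shares of all genes, with 5 lower and 5 higher of 12 (median −0.11). The kinases Pik3cd and Jak1 were lower, at −0.86 and −0.71, and the feedback inhibitors Cish and Socs1 were higher, at 4.84 and 1.99.

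Of 15 genes on the list of BACH2 partners, AP-1 and Prdm1, 12 were higher and 2 lower in tumor (median log2 2.17). Fos and Fosl2, subunits of AP-1, changed by 4.85 and 4.53, and the 2 lower genes were Bach1 at −0.63 and Nfe2l2 at −0.43. The part of tissue preparation in these changes was not tested. Of 5 ID and E protein genes, 3 were higher and 2 lower (median 1.42). Id1 was at 5.49 and Id2 at 2.34, and the E protein genes Tcf12 and Tcf3 were at −0.68 and −0.56. The remaining E protein gene, Tcf4, was higher and held the median of 1.42, so the E protein genes went both ways. Id3 was thus lower while Id1 and Id2, which act on the same partners, were higher, although Id1 had only 3.39 to 4.94 CPM in tumor and at most 0.199 CPM in spleen.

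Genes tied to stem-like exhausted cells split, with 7 of 12 lower and 4 higher in tumor (median log2 −0.43). Slamf6, a surface marker of that state, stood at 14.9, 13.0, 14.4 and 13.2 CPM in tumor and at 90.6, 99.9, 89.9 and 101 CPM in spleen, a log2 change of −2.88, and Tnfsf8 changed by −2.21, while the chemokine Xcl1 and the receptor Gpr183 were higher at 2.92 and 1.74. Terminal effector and exhausted genes rose in 14 of 16 cases (median 3.62), led by Bhlhe40 at 6.63 and the protease gene Gzmb at 6.61, and the 1 lower gene was Tox at −0.38. Every gene named from these lists passed edgeR's quasi-likelihood test after Benjamini-Hochberg adjustment, with Tcf7l2 (adjusted p = 0.043, log2 0.89), Aes (adjusted p = 0.043, log2 0.19) and Tox (adjusted p = 0.036, log2 −0.38) nearest to the threshold.

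In CD4 T cells Tcf7, Lef1, Bach2 and Id3 were much lower in tumor than in spleen. Tcf7 stood at 8.59, 32.2, 34.1 and 19.7 CPM in tumor and at 274, 327, 298 and 349 CPM in spleen, and Lef1 at 36.3, 32.2, 47.7 and 31.8 against 286, 403, 364 and 332 CPM. Bach2 stood at 3.82, 3.45, 6.82 and 3.02 CPM in tumor, from 4, 3, 3 and 2 UMIs, and at 25.3, 19.0, 19.8 and 21.0 CPM in spleen. Id3 stood at 1.91, 2.30, 4.55 and 4.54 CPM in tumor, from 2, 2, 2 and 3 UMIs, and at 119, 98.6, 132 and 163 CPM in spleen. For these 4 genes no tumor group reached the lowest spleen group, and within tumor the counting intervals of Lef1, Bach2 and Id3 overlapped among all 4 conditions. Foxp3-positive cells made up more of the tumor than of the spleen groups, and in Foxp3-negative cells alone, given below, the changes of these 4 genes were smaller and Bach2 lost its call. In tumor Tcf7 was 13.9-fold lower (log2 −3.80, SE 0.20), Lef1 9.30-fold lower (log2 −3.22, SE 0.15), Bach2 5.07-fold lower (log2 −2.34, SE 0.41) and Id3 38.7-fold lower (log2 −5.27, SE 0.26). Their Benjamini-Hochberg adjusted p-values by edgeR's quasi-likelihood test were 1.6e-10, 4.4e-11, 0.00018 and 5.4e-11, with tumor lower in 4 of 4 conditions for each.

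Satb1, Il7r and Foxo1 differed less between the tissues in CD4 T cells. Satb1 stood at 85.9, 127, 68.2 and 81.6 CPM in tumor and at 163, 206, 144 and 126 CPM in spleen. Il7r stood at 284, 389, 298 and 426 CPM in tumor and at 408, 453, 457 and 494 CPM in spleen. Foxo1 stood at 90.7, 100.1, 75.0 and 132 CPM in tumor and at 142, 179.9, 171 and 182 CPM in spleen. The tumor and spleen ranges overlapped for Satb1 and Il7r and not for Foxo1, and within each condition the tumor value was the lower for all 3 genes. Tumor levels were 1.74-fold lower for Satb1 (log2 −0.80, SE 0.13), 1.29-fold lower for Il7r (log2 −0.36, SE 0.11) and 1.66-fold lower for Foxo1 (log2 −0.73, SE 0.14). The Benjamini-Hochberg adjusted p-values were 0.00011, 0.012 and 0.00042 by edgeR's quasi-likelihood test, with 4 of 4 conditions lower for each.

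At an adjusted p under 0.05, 7 of 7 members were lower in tumor CD4 T cells, where 18.7% of the 6830 genes tested were lower, 21.4% were higher and 40.1% were called in either direction. The median log2 change was −2.34 over the members and −0.04 over all genes. The call for Il7r was lost without the WT isotype pair (log2 −0.31, adjusted p = 0.062) and without the KO isotype pair (log2 −0.31, adjusted p = 0.067) in edgeR's quasi-likelihood test with Benjamini-Hochberg adjustment. Counted as UMIs per cell, the median of all genes shifted to 0.67, the share of called genes that were lower went from 46.6% to 6.54%, and Il7r passed the threshold in the other direction, higher in tumor at 0.36 (edgeR's quasi-likelihood test, Benjamini-Hochberg adjusted p = 0.012). On that scale Satb1 at −0.08 (adjusted p = 0.63) and Foxo1 at −0.02 (adjusted p = 0.92) lost their calls in edgeR's quasi-likelihood test with Benjamini-Hochberg adjustment. Il7r also missed the threshold of edgeR's quasi-likelihood test after thinning to 2000 UMIs (log2 −0.29, Benjamini-Hochberg adjusted p = 0.10) and in Cd3-positive cells without Cd8 or NK cell UMIs (log2 −0.24, adjusted p = 0.16). With DESeq2 in place of edgeR the share of called genes that were lower was 36.5%, and Il7r missed the threshold at log2 −0.35 (adjusted p = 0.083, Benjamini-Hochberg, against 0.012 by edgeR's quasi-likelihood test).

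In CD4 T cells the same lists were read against 18.7% lower, 21.4% higher and a median of −0.04 over all genes. Naive homing and quiescence genes were lower in 8 and higher in 2 of 14 cases (median log2 −0.80), and FOXO genes were lower in 7 and higher in 1 of 14 tested (median −0.47). Of the TCF/LEF and Wnt list 10 of 17 genes were tested, with 2 lower and 0 higher (median −0.14), so that the lower genes were near the share of all genes. The BACH2 and AP-1 list had 9 higher and 0 lower of 10 tested (median 2.52), including Fos at 5.36 and Fosl2 at 4.85. IL-7 receptor genes divided into 4 lower and 5 higher of 12 (median 0.14), with Cish at 2.67 and Pik3cd at −1.14. The ID and E protein list had 1 lower and 1 higher of 3 tested (median −0.17), the stem-like list 3 lower and 4 higher of 8 tested (median 0.12), and the terminal list 1 lower and 13 higher of 14 tested (median 3.18).

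Tumor and spleen CD4 T cells also differed in their share of Foxp3-positive cells, and the members were therefore read on each side of Foxp3. Foxp3 was called without thinning, and the CD45+ libraries had a median of 9889 to 12251.5 UMIs per cell in tumor and 4413.5 to 4733 in spleen. Foxp3 may thus be missed more often in spleen cells, and the effect of depth on this split was not tested. The regulatory T cell list (4 of 4 genes, none at 0) summed to 3615, 3557, 2828 and 3665 CPM in tumor, led by Ctla4, and to 504, 564, 434 and 467 CPM in spleen. Tcf7 in Foxp3-positive tumor cells gave 1 UMI over the 4 groups, or 0, 1.53, 0 and 0 CPM, the zeros allowing up to 3.19, 11.5 and 6.69 CPM, against 83.0, 124, 84.1 and 61.0 CPM in Foxp3-negative tumor cells. In spleen Tcf7 stood at 129, 89.4, 33.3 and 158 CPM in Foxp3-positive cells and at 313, 391, 351 and 403 CPM in Foxp3-negative cells. Tcf7 was thus lower beside Foxp3 in both tissues and in every condition, and the Tcf7 UMIs of tumor CD4 T cells came almost wholly from Foxp3-negative cells. Lef1 ran the same way, at 25.6, 16.9, 34.4 and 22.3 CPM with Foxp3 and 129, 78.3, 67.3 and 51.6 CPM without it in tumor. In spleen Lef1 stood at 73.8, 97.6, 106 and 135 CPM with Foxp3 and at 342, 486, 415 and 387 CPM without it.

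Bach2 gave no UMI in spleen Foxp3-positive cells of any condition, which allows up to 27.7, 24.4, 19.96 and 16.9 CPM, against 32.0, 24.2, 23.7 and 27.0 CPM in Foxp3-negative ones. The limit reached the Foxp3-negative level in WT anti-PD1 and came close to it in WT isotype and KO isotype, and in tumor it gave 2 UMIs over the 4 Foxp3-positive groups and 4, 2, 3 and 1 UMIs in the Foxp3-negative groups. Id3 ran the other way in spleen, with 157, 171, 153 and 270.1 CPM in Foxp3-positive cells and 108, 79.1, 128 and 133 CPM in Foxp3-negative cells. In tumor Id3 gave 2 UMIs over the 4 Foxp3-positive groups, and in the Foxp3-negative groups it stood at 0 (allowing up to 27.7), 9.21, 11.2 and 14.1 CPM. Il7r in spleen was lower with Foxp3, at 221, 293, 213 and 248 CPM, than without it, at 458, 497, 505 and 563 CPM. In tumor that gap was absent from 2 of the 4 conditions, with Il7r at 277, 400.4, 302 and 368 CPM with Foxp3 and 341, 354, 291 and 549 CPM without it. Satb1 in spleen stood at 129, 81.3, 0 (allowing up to 19.96) and 16.9 CPM with Foxp3, from 14, 10, 0 and 3 UMIs. Without Foxp3 it stood at 172, 239.5, 173 and 157 CPM, the higher value in every condition. In tumor Satb1 stood at 78.8, 139.6, 57.4 and 69.2 CPM with Foxp3 and at 148, 87.5, 84.1 and 108 CPM without it, higher beside Foxp3 in WT anti-PD1 and lower in the other 3. In tumor Foxo1 did not separate by Foxp3, with 91.6, 92.0, 91.8 and 123 CPM with it and 83.0, 124, 50.4 and 150.1 CPM without it. In spleen Foxo1 had slightly higher values beside Foxp3 in each condition, at 148, 219.5, 213 and 191 CPM against 140.4, 169, 162 and 179 CPM. The Foxp3-positive spleen values rest on only 16, 27, 32 and 34 UMIs, and these small gaps were not tested.

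The tissue contrast was refitted on each side of Foxp3. Among Foxp3-negative cells Tcf7 changed by −2.03, Lef1 by −2.38, Id3 by −3.44, Satb1 by −0.80 and Foxo1 by −0.65, all past the threshold of edgeR's quasi-likelihood test. Bach2 at −0.81 (adjusted p = 0.27) and Il7r at −0.38 (adjusted p = 0.10) missed that threshold after Benjamini-Hochberg adjustment in edgeR's quasi-likelihood test. Among Foxp3-positive cells Il7r was higher in tumor at 0.47 (Benjamini-Hochberg adjusted p = 0.029, edgeR's quasi-likelihood test), while Lef1, Id3 and Foxo1 were lower at −2.08, −7.27 and −0.94. The Id3 value is a fit with 0 UMIs in 3 of the 4 tumor groups, where the limit of 3 counts gives log2 changes of −5.21, −3.74 and −5.33. Satb1 had a positive value of 0.69 there that missed the threshold (adjusted p = 0.18, Benjamini-Hochberg, edgeR's quasi-likelihood test), and Tcf7 and Bach2 fell below the count filter. The difference between the Foxp3-positive and Foxp3-negative fits was not tested.

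The next question of the design is what the Aire genotype and anti-PD1 did to these genes within a tissue, which rests on single libraries and was not tested. A gene was counted where its CPM ratio passed 1.5-fold. In tumor CD8+ libraries 0 of 7 members passed it for KO isotype over WT isotype, where 5.87% of genes did, and 0 of 7 for KO anti-PD1 over WT anti-PD1, where 4.93% did. For WT anti-PD1 over WT isotype 0 of 7 passed, against 4.35% of genes, and for KO anti-PD1 over KO isotype 1 of 7, against 4.51%. In spleen 0 of 7 passed in each of the 4 comparisons, against 5.55%, 5.61%, 2.78% and 2.57% of genes in the same order. Member medians of the log2 ratio were 0.10, 0.07, −0.04 and −0.15 in tumor, beside −0.04, −0.02, −0.00 and 0.01 over all genes, and −0.07, −0.05, 0.04 and 0.04 in spleen, beside 0.01, 0.07, −0.03 and 0.05. These medians are over members that went both ways, and single members are given below.

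The 1 member past 1.5-fold was Id3, at 15.1 CPM in the KO isotype tumor library and 9.15 CPM in the KO anti-PD1 tumor library, a log2 ratio of −0.72 (interval −0.98 to −0.47). Among cells with Cd8 and Cd3 UMIs that ratio was −0.55, without cells above 2 times the median depth it was −0.52, and after thinning each cell to 2000 UMIs it was −0.25, each inside 1.5-fold, while in CD8 T cells of the CD45+ libraries it was −0.89 (interval −1.70 to −0.06). The macrophage list was 196 CPM in the KO isotype library and 75.7 CPM in the KO anti-PD1 library, and Id3 stood at 42.8, 64.9, 53.0 and 50.6 CPM in tumor macrophages. The part of macrophage RNA in this ratio was not tested beyond the gated value.

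Under anti-PD1 in WT tumors Tcf7 and Lef1 were lower, by log2 −0.55 (interval −0.72 to −0.37) and −0.44 (interval −0.62 to −0.26), and in KO tumors they were level, at −0.05 and 0.06. Between the genotypes under anti-PD1 the KO tumor library was the higher, by 0.42 for Tcf7 (interval 0.23 to 0.61) and 0.50 for Lef1 (interval 0.31 to 0.70). These comparisons share the WT anti-PD1 library, which had the lowest level of both genes and the highest share of Pdcd1-positive cells, at 89.4% of gated cells against 79.7% in WT isotype, 83.3% in KO isotype and 83.4% in KO anti-PD1. CD8 T cells of the CD45+ libraries did not show the drop, with WT treatment ratios of 0.15 for Tcf7 (interval −0.50 to 0.82) and −0.11 for Lef1 (interval −0.72 to 0.50), and KO over WT ratios under anti-PD1 of −0.17 and −0.18.

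Il7r in tumor ran in opposite directions by genotype under anti-PD1, with 0.33 in WT (interval 0.29 to 0.38) and −0.17 in KO (interval −0.22 to −0.11). In CD8 T cells of the CD45+ libraries the ratios of Il7r were 0.62 in WT (interval 0.40 to 0.84) and −0.13 in KO (interval −0.26 to −0.00), of the same signs. The KO over WT ratio of Il7r was 0.21 under isotype and −0.29 under anti-PD1. Foxo1 was slightly higher in KO tumors, by 0.28 under isotype (interval 0.18 to 0.38) and 0.17 under anti-PD1 (interval 0.06 to 0.27). Bach2 was lower in KO than in WT tumors under anti-PD1 at −0.35 (interval −0.66 to −0.03), with intervals that held 0 in the other 3 tumor comparisons. Id3 was lower under anti-PD1 in WT tumors at −0.46 (interval −0.70 to −0.23) and higher in KO than in WT under isotype at 0.33 (interval 0.12 to 0.54), with opposite signs in CD8 T cells of the CD45+ libraries at 0.51 (interval −0.45 to 1.54) and −0.10 (interval −1.13 to 0.98). Under anti-PD1 Id3 was near level between the genotypes, at 0.07, and lower in KO at −1.51 (interval −2.25 to −0.76) in CD8 T cells of the CD45+ libraries. Among comparisons of the tumor CD8+ libraries, Satb1 moved most in KO under anti-PD1, at −0.15. In CD8 T cells of the CD45+ libraries that ratio of Satb1 was −0.08. There it was −0.30 (interval −0.56 to −0.03) for KO over WT under anti-PD1 and 0.25 (interval −0.13 to 0.63) for anti-PD1 in WT.

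In the spleen CD8+ libraries Bach2 and Id3 varied more than the other members. Bach2 was higher under anti-PD1 in WT at 0.40 (interval 0.20 to 0.59) and lower in KO at −0.32 (interval −0.53 to −0.11), so that the 2 middle groups, WT anti-PD1 and KO isotype, were the high ones. Id3 was higher under anti-PD1 in KO at 0.45 (interval 0.34 to 0.57) and level in WT at −0.05, leaving KO anti-PD1 as the 1 high library. Satb1 changed by 0.12 in WT and −0.11 in KO under anti-PD1, and was lower in KO than in WT anti-PD1 at −0.27 (interval −0.34 to −0.20). Tcf7, Lef1 and Foxo1 stayed between −0.16 and 0.20 in the 4 comparisons of spleen CD8+ libraries, and Il7r reached 0.20 in KO under anti-PD1. In spleen CD8 T cells of the CD45+ libraries Tcf7 moved more, at −0.43 for KO over WT isotype (interval −0.67 to −0.19) and 0.39 for anti-PD1 in KO (interval 0.16 to 0.62). Il7r for KO over WT was 0.31 there under isotype (interval 0.12 to 0.51) and 0.23 under anti-PD1 (interval 0.06 to 0.41). In the CD8+ libraries these Il7r ratios were −0.07 (interval −0.12 to −0.03), of opposite sign, and 0.09 (interval 0.04 to 0.13). The smaller CD45+ groups had intervals that held 0 for these Bach2, Id3 and Satb1 ratios, and some were not seen there. Under anti-PD1 in KO, Satb1 turned to 0.15 and Id3 was level at −0.01, and Satb1 in KO over WT anti-PD1 was 0.06.

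**Figure D2:**
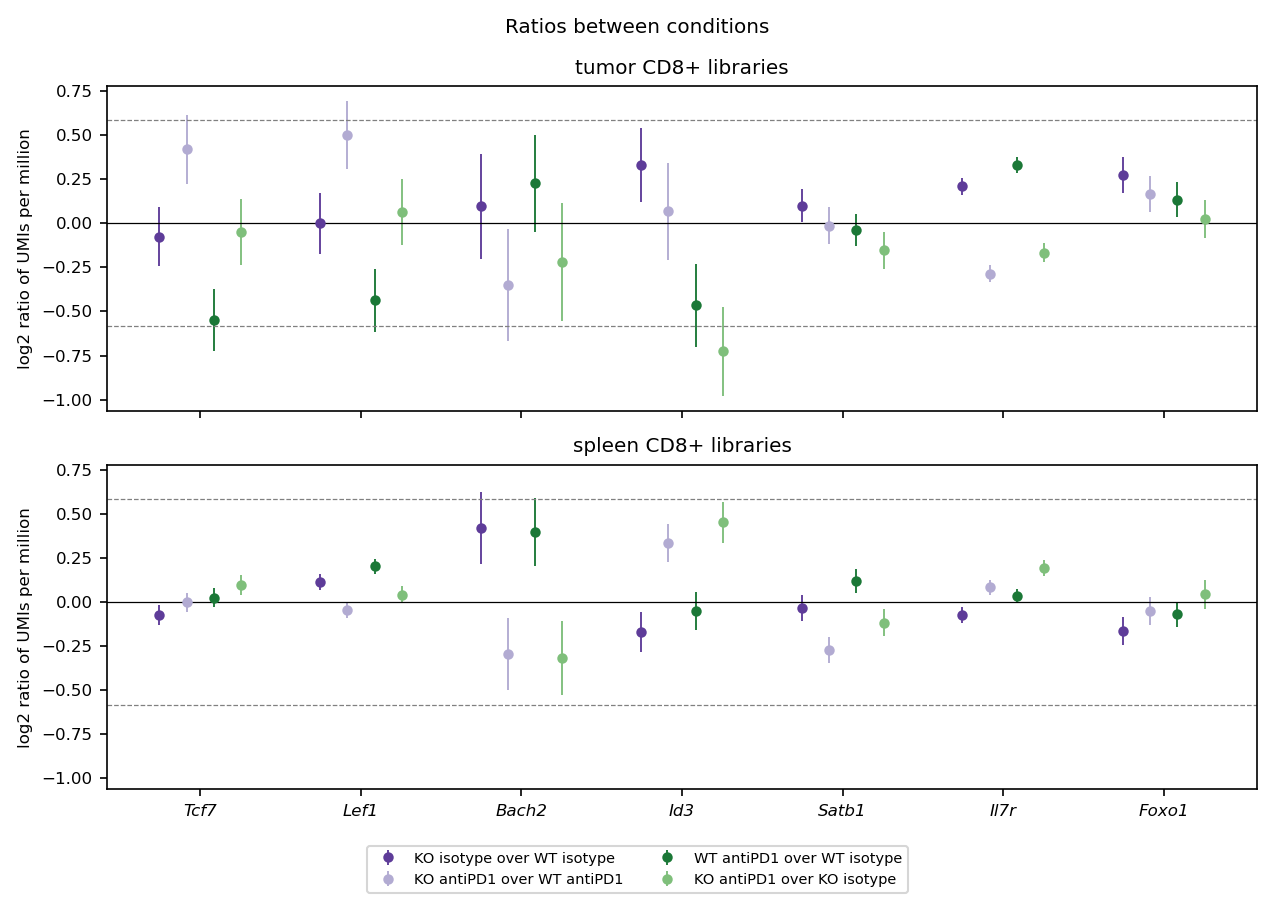
Log2 ratios of CPM between pairs of conditions for the 7 genes, in tumor and spleen CD8+ libraries, with bars for the conditional exact 95% interval of the counts and dashed lines at 1.5-fold (WT for Aire+/+, KO for Aire−/−). The 1 point past a dashed line is Id3 in KO anti-PD1 over KO isotype tumors, at −0.72.

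In tumor CD4 T cells the WT isotype group was low in Tcf7. Its 9 UMIs gave 8.59 CPM, and the log2 ratio to it was 1.91 in WT anti-PD1 (interval 0.78 to 3.18) and 1.99 in KO isotype (interval 0.70 to 3.36). That group also had the highest share of Foxp3-positive cells, 82.1%, and in its Foxp3-negative cells Tcf7 stood at 83.0 CPM, within the 61.0 to 124 CPM of the other groups. Il7r was higher under anti-PD1 in tumor CD4 T cells of both genotypes, by 0.46 in WT (interval 0.23 to 0.69) and 0.52 in KO (interval 0.21 to 0.83). Foxo1 was higher under anti-PD1 in KO at 0.81 (interval 0.22 to 1.43), and Satb1 in WT at 0.56 (interval 0.14 to 0.98). This Satb1 ratio was seen in Foxp3-positive cells (78.8 to 139.6 CPM) and not in Foxp3-negative ones (148 to 87.5 CPM). The Foxp3-negative values rest on only 16 and 19 UMIs, and their opposite sign was not tested. Satb1 was also lower in KO anti-PD1 than in WT anti-PD1 tumors at −0.63 (interval −1.13 to −0.15). That difference was seen in Foxp3-positive cells (69.2 against 139.6 CPM) and not in Foxp3-negative ones (108 against 87.5 CPM, from 23 and 19 UMIs). In spleen CD4 T cells KO anti-PD1 was above WT anti-PD1 for Id3 at 0.73 (interval 0.27 to 1.20) and below it for Satb1 at −0.71 (interval −1.10 to −0.31). Lef1 in spleen was higher in WT anti-PD1 than in WT isotype at 0.50 (interval 0.19 to 0.80). For KO over WT it was higher under isotype at 0.35 (interval 0.07 to 0.64) and lower under anti-PD1 at −0.28 (interval −0.54 to −0.02). The intervals of Bach2 held 0 in each CD4 comparison.

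Detection among Pdcd1-positive tumor CD8 cells was read after thinning each cell to 2000 UMIs, since deeper cells show more genes. A cell was positive with at least 1 UMI, and no cell was too shallow. This gave 1497, 1544, 1140 and 1386 Pdcd1-positive and 1050, 610, 661 and 802 Pdcd1-negative cells. Before thinning 2029, 1925, 1500 and 1825 of the same cells had a Pdcd1 UMI, so many Pdcd1-negative cells held Pdcd1 at full depth. The effect of this mixing on the shares below was not tested. Tumor macrophages of the CD45+ libraries (1110, 740, 516 and 185 cells) served as cells that should lack T cell transcripts. Before thinning the median depth was 11791, 10468.5, 10518.5 and 9299.5 UMIs in Pdcd1-positive cells, 9965.5, 9513, 9163 and 8013.5 in Pdcd1-negative cells and 14608, 14927.5, 14095.5 and 11565 in macrophages.

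Tcf7 was found in few Pdcd1-positive cells and in a larger share of Pdcd1-negative cells of the same libraries. It was found in 24, 23, 14 and 32 Pdcd1-positive cells, or 1.60% (exact Clopper-Pearson interval 1.03 to 2.38), 1.49% (0.947 to 2.23), 1.23% (0.673 to 2.05) and 2.31% (1.58 to 3.24). In Pdcd1-negative cells the share was 8.76%, 8.36%, 11.6% and 8.85%. The intervals of the 4 conditions overlapped among Pdcd1-positive cells, and those of Pdcd1-positive and Pdcd1-negative cells were apart in every library. In macrophages the share was 0.0901% in WT isotype and 0 of 740, 516 and 185 cells in the others, which allows up to 0.405%, 0.581% and 1.62%, below the Pdcd1-positive share in each library, although the intervals of the KO libraries overlapped those of their macrophages. Without thinning 7.24%, 5.61%, 6.33% and 6.41% of Pdcd1-positive cells had a Tcf7 UMI.

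With more Pdcd1 the share had no common direction over the libraries. Tcf7 was found in 1.15%, 1.52%, 2.27% and 2.07% of cells with 1 Pdcd1 UMI and in 2.37%, 1.53%, 0.652% and 2.55% of cells with 3 or more, higher in WT isotype, level in WT anti-PD1, lower in KO isotype and slightly higher in KO anti-PD1. Read the other way, 20.7%, 31.1%, 15.4% and 31.1% of the Tcf7-positive tumor CD8 cells (116, 74, 91 and 103 cells) were Pdcd1-positive, against 60.6%, 73.1%, 65.8% and 64.9% of the Tcf7-negative ones. Tcf7-positive cells were thus the less often Pdcd1-positive in every library.

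Lef1 followed Tcf7, found in 1.60%, 2.01%, 1.67% and 2.96% of Pdcd1-positive and 8.57%, 7.38%, 12.1% and 8.85% of Pdcd1-negative cells, with the same macrophage shares as Tcf7. Satb1 was found in 8.62%, 11.6%, 10.0% and 8.08% of Pdcd1-positive and 15.0%, 14.9%, 17.7% and 15.6% of Pdcd1-negative cells, against 0.18% to 1.08% of macrophages where it was seen and 0 of 740 in WT anti-PD1, which allows up to 0.405%. Foxo1 was found in 10.2%, 11.6%, 10.4% and 12.6% of Pdcd1-positive and 13.3%, 14.1%, 14.1% and 13.0% of Pdcd1-negative cells, against 1.62% to 2.70% of macrophages. Lef1 and Satb1 were thus found more often in cells that were Pdcd1-negative at this depth, with overlapping intervals for Satb1 in WT anti-PD1. The intervals of Foxo1 overlapped in all 4 libraries.

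Il7r and Bach2 had overlapping intervals of detection on both sides of Pdcd1 at this depth. Il7r was found in 36.1%, 42.3%, 39.1% and 36.0% of Pdcd1-positive and 33.8%, 38.4%, 38.6% and 36.3% of Pdcd1-negative cells. Macrophages had it in 19.0%, 18.2%, 18.0% and 14.1% of cells, and there the UMIs of Il7r outnumbered those of Satb1 by 180, 145, 161 and 108.5 to 1, against 3.62, 4.67, 3.90 and 3.87 to 1 in the CD8+ libraries. Satb1 had only 11, 10, 6 and 2 UMIs in macrophages, and the source of the Il7r UMIs there was not tested. Bach2 was found in 1.60%, 2.33%, 0.965% and 1.15% of Pdcd1-positive and 1.71%, 1.48%, 1.06% and 1.12% of Pdcd1-negative cells. Macrophages had Bach2 in 0.541%, 0.541% and 0.581% of cells and in 0 of 185, which allows up to 1.62%, and only the Pdcd1-positive share of WT anti-PD1 was apart from its macrophages. Id3 was found in 0.468%, 0.777%, 0.965% and 1.23% of Pdcd1-positive and 3.71%, 3.61%, 4.84% and 4.24% of Pdcd1-negative cells, beside 5.95%, 8.78%, 6.78% and 7.57% of macrophages. In macrophages the ratio of Id3 to Satb1 UMIs was 67.8, 76.0, 72.7 and 58.5, against 0.188, 0.140, 0.221 and 0.148 in the CD8+ libraries. Macrophages thus give no background share for Id3. The source of its UMIs there was not tested, and the Id3 shares are not read as expression.

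**Figure D3:**
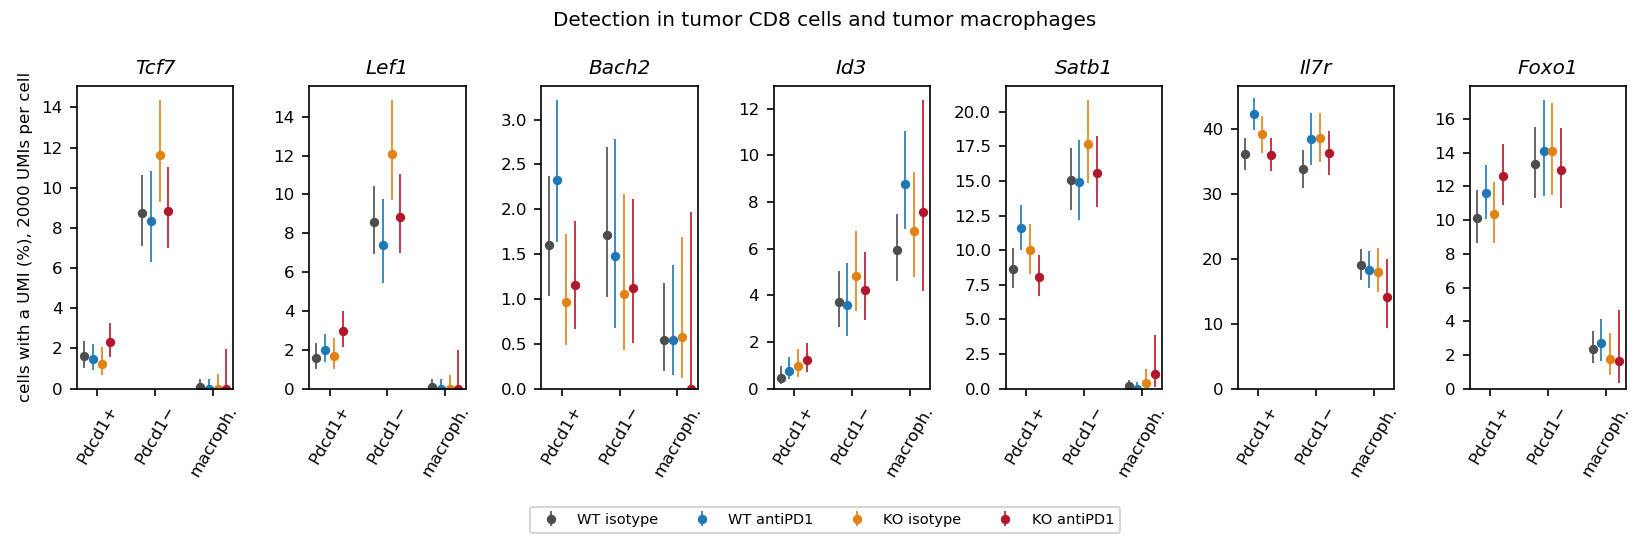
Percent of cells with at least 1 UMI of each gene after thinning to 2000 UMIs per cell, in Pdcd1-positive and Pdcd1-negative tumor CD8 cells and in tumor macrophages, with a color per condition (WT for Aire+/+, KO for Aire−/−), bars for the exact 95% Clopper-Pearson interval and a separate axis for each gene. Tcf7 lies at 1.23% to 2.31% in Pdcd1-positive cells and 8.36% to 11.6% in Pdcd1-negative cells.

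As levels over all UMIs, Tcf7 stood at 9.81, 7.17, 10.9 and 8.98 CPM in tumor CD8 cells with a Pdcd1 UMI and at 94.9, 113, 103 and 109 CPM in those without. Lef1 stood at 7.67, 7.38, 9.61 and 12.5 CPM with a Pdcd1 UMI and at 94.9, 110.1, 106 and 88.3 CPM without. For both genes the cells without Pdcd1 were the higher in every library, and still below the level in spleen. WT anti-PD1 was the lowest library for Tcf7 among cells with Pdcd1 and the highest among cells without it. Satb1 stood at 50.5, 55.3, 56.5 and 50.5 CPM with and 157, 167, 182 and 153 CPM without a Pdcd1 UMI. Id3 stood at 3.10, 4.77, 7.92 and 5.59 CPM with and 40.5, 32.2, 52.0 and 34.2 CPM without one. With cells that held Cd4 UMIs, or more than a few B cell or macrophage UMIs, left out, Id3 in tumor stood at 39.7, 30.2, 52.6 and 35.1 CPM without a Pdcd1 UMI, and the ratios were −3.71, −2.64, −2.78 and −2.62. Log2 ratios of cells with over cells without ran from −0.80 to −0.36 for Foxo1, from −1.30 to −0.28 for Bach2 and from −0.47 to 0.02 for Il7r. Bach2 was lower in cells with Pdcd1, with intervals clear of 0, in WT anti-PD1 at −0.82 (interval −1.42 to −0.16) and KO isotype at −1.30 (interval −1.84 to −0.72). Il7r was lower with Pdcd1 in WT anti-PD1 at −0.16 (interval −0.27 to −0.04) and KO anti-PD1 at −0.47 (interval −0.58 to −0.36).

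In the spleen few CD8 cells had a Pdcd1 UMI, 51, 60, 42 and 73 in number or 1.82%, 2.09%, 1.83% and 2.86% of gated cells. Tcf7, Lef1, Satb1, Il7r and Foxo1 were lower in these cells in each library, with log2 ratios of −0.53, −0.55, −1.11 and −1.83 for Tcf7 and −1.09, −1.31, −2.38 and −2.45 for Lef1. Id3 went the other way, at 424, 223, 159.6 and 150.2 CPM with a Pdcd1 UMI and 68.6, 69.2, 64.3 and 87.0 CPM without. Its log2 ratios were 2.63 (interval 2.40 to 2.85), 1.69, 1.31 and 0.79 (interval 0.48 to 1.08), in contrast to −3.71, −2.75, −2.71 and −2.61 in tumor. The Id3 UMIs came from 29, 24, 14 and 31 of the Pdcd1-positive spleen cells. With the same cells left out, the spleen ratios of Id3 were 2.68, 1.47, 1.41 and 0.84. No background share was measured in spleen.

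The few tumor CD8 cells with both Tcf7 and Pdcd1 differed from the other Pdcd1-positive cells in other genes. Slamf6 was found in 12.5%, 8.70%, 35.7% and 21.9% of them and in 2.51%, 2.10%, 2.04% and 2.81% of Tcf7-negative ones, beside 2.70%, 2.97%, 3.29% and 2.16% of macrophages. Havcr2, which encodes the exhaustion marker TIM-3, was found in 1 of 24, 2 of 23, 1 of 14 and 0 of 32 of them, the last allowing up to 9.38%, and in 22.1%, 26.2%, 25.3% and 24.2% of Tcf7-negative ones. Macrophages express Havcr2 themselves and are no measure of its free RNA. Tcf7-positive cells were thus higher in Slamf6 and lower in Havcr2 in each library, from 14 to 32 cells, with intervals apart for Slamf6 in the KO libraries and for Havcr2 in KO anti-PD1 alone. Gzmb was found in 54.2%, 30.4%, 14.3% and 34.4% of the Tcf7-positive and 64.6%, 69.8%, 70.5% and 72.5% of the Tcf7-negative cells, apart in all but WT isotype. The stem-like gene Xcl1 was found in 16.7%, 30.4%, 42.9% and 9.38% against 18.2%, 15.9%, 11.8% and 8.94%, with intervals apart in KO isotype alone. S1pr1, a receptor for exit from tissue, was found in 29.2%, 8.70%, 14.3% and 34.4% against 1.83%, 2.56%, 2.13% and 6.13%, apart in WT isotype and KO anti-PD1. No background share was measured for Gzmb, Xcl1 or S1pr1. Among the members, Lef1 was found in 3 of 24, 3 of 23, 0 of 14 and 0 of 32 Tcf7-positive cells, the last 2 allowing up to 21.4% and 9.38%, against 1.43%, 1.84%, 1.69% and 3.03% of Tcf7-negative cells, with intervals apart in the WT libraries alone. Foxo1 was found in 25.0%, 13.0%, 14.3% and 28.1% against 9.91%, 11.6%, 10.3% and 12.3%, and Il7r in 37.5%, 47.8%, 28.6% and 46.9% against 36.0%, 42.2%, 39.3% and 35.7%, with overlapping intervals for Foxo1 and Il7r in each library.

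Across the 16 groups of cells (8 CD8+ libraries and the CD4 T cells of 8 CD45+ libraries) the members had positive pairwise correlations, with Pearson r of log2(CPM + 1) from 0.664 for Bach2 and Il7r to 0.968 for Tcf7 and Lef1. These points fall into tumor and spleen clusters, so r mostly restates the tissue contrast and is given as a description. Over the 4 tumor CD8+ libraries alone r was 0.95 for Tcf7 and Lef1, 0.955 for Id3 and Satb1 and 0.90 for Bach2 and Il7r, and negative for Tcf7 with Bach2 (−0.72) and Il7r (−0.82) and for Lef1 with Bach2 (−0.86) and Il7r (−0.82), from 4 points among which WT anti-PD1 stood apart for Tcf7 and Lef1. Among 5410 genes with a mean of at least 20 CPM, the most alike to Tcf7 were Klf3 (0.988), Rasgrp2 (0.983) and Add1 (0.983), and to Lef1 Stk38 (0.989) and Klf3 (0.988). For Foxo1 they were S1pr1 (0.976), Cyth1 (0.975) and Ipcef1 (0.971), and for Il7r A230046K03Rik (0.951), Foxo1 itself (0.949) and Ipcef1 (0.947). Id3 was nearest to Emg1 (0.988), Ikzf1 (0.981) and Gm6548 (0.979), and Satb1 to Idh2 (0.972), Ikbke (0.949) and Scaf4 (0.945). Bach2, compared with 5411 genes, was nearest to Pik3ip1 (0.973), Klhl6 (0.972) and Snhg20 (0.971).

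The members lie apart in the genome. In RefSeq GRCm38.p6 Foxo1 is at chr3:52268337-52350109 and Lef1 at chr3:131110297-131224357, Bach2 at chr4:32238413-32586109 and Id3 at chr4:136143822-136145392, all on the plus strand. On the minus strand are Tcf7 at chr11:52246527-52283383, Il7r at chr15:9506159-9529941 and Satb1 at chr17:51736187-51833290. All 7 members matched the promoter table, with 15 promoters of 250 bases before to 50 bases after a transcript start. Since the members were all lower in tumor, these promoters were searched on both strands for the cores of factors among them. The TCF/LEF core CTTTGA was in 2 of the 15 (5257 of all 32851 promoters), the FOXO core GTAAACA in 1 (3.65% of all promoters), the AP-1 and BACH core TGANTCA in 0 (7.81%) and the E-box CANNTG, bound by E proteins, in 12 (72.3%).

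The 3 promoters with a TCF/LEF or FOXO core are shown because they belong to 3 of the regulators themselves, with the core in capitals, where TCAAAG is CTTTGA read on the other strand. All 3 lie inside the span of their gene, the Lef1 promoter holds 2 matches, and a match describes letters only. They are, 5′ to 3′ from RefSeq GRCm38.p6, Lef1 at chr3:131156044-131156343 (plus strand), Bach2 at chr4:32417185-32417484 (plus strand) and Tcf7 at chr11:52282546-52282845 (minus strand).
Lef1: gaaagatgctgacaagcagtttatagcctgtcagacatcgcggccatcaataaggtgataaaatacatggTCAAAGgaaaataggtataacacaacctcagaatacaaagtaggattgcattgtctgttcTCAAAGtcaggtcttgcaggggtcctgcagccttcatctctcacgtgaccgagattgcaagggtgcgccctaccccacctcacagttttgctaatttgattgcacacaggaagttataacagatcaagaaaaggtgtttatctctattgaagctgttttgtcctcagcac
Bach2: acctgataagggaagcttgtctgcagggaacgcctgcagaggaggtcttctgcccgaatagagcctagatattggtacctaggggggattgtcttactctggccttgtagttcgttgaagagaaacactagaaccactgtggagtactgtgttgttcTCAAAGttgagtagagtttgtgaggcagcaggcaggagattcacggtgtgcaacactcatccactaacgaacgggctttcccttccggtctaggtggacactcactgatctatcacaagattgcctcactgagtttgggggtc
Tcf7: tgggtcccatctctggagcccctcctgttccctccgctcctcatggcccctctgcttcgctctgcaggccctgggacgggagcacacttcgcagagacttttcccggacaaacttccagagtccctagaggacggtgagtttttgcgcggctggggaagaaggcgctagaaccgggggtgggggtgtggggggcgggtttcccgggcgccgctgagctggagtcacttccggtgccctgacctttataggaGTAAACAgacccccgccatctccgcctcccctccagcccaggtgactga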

How the data were processed

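Per the labels, 16 libraries were made, 1 per genotype, treatment, tissue and sort, and the deposited tables hold UMI counts per cell and gene that the authors aligned to GRCm38. The 7 members and all gene lists were chosen with earlier results of these data known. Of 25127 table entries, 27 vector entries were left out and entries of a symbol were summed. Cells with at least 200 genes and at most 20% mitochondrial UMIs were kept (37453 kept, 156 removed). No doublet caller was run, and leaving out cells above 2 times the median depth, as likely doublets, was an alternative. CD8 cells for detection had a Cd8 and a Cd3 UMI. CD4 T cells had at least 1 UMI of Cd4, at least 2 of Cd3 genes, no Cd8 UMI, at most 1 B cell UMI and at most 2 macrophage UMIs. Macrophages had at least 10 UMIs of C1q genes and no Cd3 UMI.

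UMIs were summed per library and tumor was tested against spleen with edgeR 4.0.16 (TMM, glmQLFit, condition as block, two-sided, R 4.3.3), for genes with at least 10 UMIs in at least 4 libraries, with Benjamini-Hochberg adjustment over all genes tested. DESeq2 1.42.0, other filters, cells, depths and pairs left out were alternatives. With 1 library per condition, ratios between conditions have conditional exact intervals, levels exact Poisson intervals and shares Clopper-Pearson intervals, and a gene was counted past 1.5-fold among genes with at least 100 UMIs over the pair. A share of 0 is given with a limit of 3 counts. Python 3.11.15, numpy 2.4.6, scipy 1.17.1, pandas 2.3.3 and matplotlib 3.10.9 were used.

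Named genes were the members; per pathway list the 2 genes with the largest log2 change in each direction past the threshold in the CD8+ tissue test; Pdcd1, Slamf6, Havcr2, Cd8a, Cd8b1, Cd4, Cd3e, Foxp3 and Aire; the 3 genes most alike to each member; and the most abundant gene of each marker list. Krt8 and Col3a1 were named after their values were seen. Not every gene picked by this rule is reported here. An alignment of the Tcf7 and Lef1 proteins was not made.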

Additional observations from a re-analysis of the deposited data

Results flagged for a closer look

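Bach2 in the spleen CD8+ libraries was higher under anti-PD1 in WT (0.40) and lower in KO (−0.32), and the KO minus WT difference of the log2 ratios was −0.71. Satb1 in the same libraries changed by 0.12 in WT and −0.11 in KO, a difference of −0.24, while in CD8 T cells of the CD45+ spleen libraries it changed by 0.12 and 0.15, with intervals that held 0. Il7r in the tumor CD8+ libraries changed by 0.33 in WT and −0.17 in KO, a difference of −0.50. Each stands out because the sign of the treatment ratio was opposite in the genotypes of the CD8+ libraries, with both intervals clear of 0, and the difference was not tested, since each condition has 1 library.

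Id3 was higher in CD8 cells with a Pdcd1 UMI than in those without in all 4 spleen libraries and lower in all 4 tumor libraries. The median log2 ratio of the spleen libraries minus that of the tumor libraries was 4.24, and the difference was not tested. The spleen ratios rest on 42 to 73 cells per library, with no background share measured there. Under a gate without Cd4 UMIs and with few B cell and macrophage UMIs the ratios were 2.68, 1.47, 1.41 and 0.84 in spleen and −3.71, −2.64, −2.78 and −2.62 in tumor. Part of the Id3 UMIs may still come from macrophages, which hold Id3 in tumor (42.8 to 64.9 CPM), and this part was not tested. On both sides of Pdcd1 the thinned tumor shares of cells with Id3 lay below that of macrophages. Among spleen cells with a Pdcd1 UMI, macrophage genes stood at 0, 2.13, 0 and 0 CPM. B cell genes stood there at 30.5, 23.4, 27.1 and 52.6 CPM, and at 19.0, 16.8, 9.41 and 12.8 CPM under that gate. The part of B cell RNA was not tested.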

How the results depend on the processing

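Of 70 tissue changes of single members in the CD8+ libraries over the alternatives, 69 kept their direction and side of the threshold, and Il7r per cell lost its call. In CD4 T cells 69 of 81 did, 9 lost their call and 3 turned: Il7r to 0.36 per cell, and Il7r to 0.47 and Satb1 to 0.69 in Foxp3-positive cells. The per-cell scale, the Foxp3-positive cells and a stricter gate for Id3 were chosen after seeing the data. The count of genes past the threshold in CD8+ libraries ran from 8025 to 8543 with 1 pair left out, and in CD4 T cells from 2138 to 2399. In CD4 T cells, where 2740 genes passed, 1598 passed with DESeq2, 4268 per cell, 1125 after thinning, 1054 without Foxp3-positive cells and 1248 in Foxp3-positive cells alone; the last 3 have fewer UMIs or cells and test fewer genes, and for the others the cause was not tested.

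Genes past 1.5-fold depended on the count minimum. In the order KO over WT under isotype, KO over WT under anti-PD1, anti-PD1 in WT and anti-PD1 in KO, a minimum of 20 UMIs gave 1424, 1180, 1145 and 1237 genes in tumor and 1224, 1267, 844 and 815 in spleen, since it lets in genes with few counts. Thinning to 2000 UMIs gave 323, 285, 260 and 196 in tumor and 258, 292, 123 and 117 in spleen, where fewer genes reach the minimum. Gated cells gave 221 for anti-PD1 in KO tumors and 115 for anti-PD1 in WT spleens, and leaving out cells above 2 times the median depth gave 314 for KO over WT isotype spleens and 163 for anti-PD1 in WT spleens; the cause was not tested. Of 168 member ratios between conditions under these alternatives, 145 stayed within their counting interval and 23 moved.

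The share of Pdcd1-positive tumor CD8 cells with Tcf7 follows depth by construction. At 1000 UMIs it was 0.971%, 0.345%, 0.959% and 1.30%; at 4000 UMIs it was 3.07%, 2.86%, 3.28% and 4.01%, and without thinning 7.24%, 5.61%, 6.33% and 6.41%, in the order of the report. Of 120 such shares of the other members, 56 stayed within their interval and 64 moved. The Id3 ratios by Pdcd1 kept their sign in 8 of 8 libraries under the stricter gate. No fit was made between conditions, where pairing by the other factor would give 2 pairs per tissue and sort; depth limits Bach2 and Id3 in tumor CD4 T cells, with 2 to 4 UMIs per group.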

Other observations

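Ccr7, the homing receptor of naive T cells and a gene of the naive list, was named after its values were seen. Its level in CD8+ libraries was 436, 527, 467 and 326 CPM in tumor and 463, 454, 438 and 473 CPM in spleen (log2 −0.18, adjusted p = 0.17, edgeR's quasi-likelihood test, Benjamini-Hochberg, lower in 2 of 4 conditions), while S1pr1 of the same list changed by −3.36. Among Pdcd1-positive tumor CD8 cells thinned to 2000 UMIs, Ccr7 was found in 13 of 24, 12 of 23, 7 of 14 and 9 of 32 Tcf7-positive and in 19.96%, 19.9%, 17.2% and 11.7% of Tcf7-negative cells. No background share was measured for Ccr7.

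In spleen CD8+ libraries the terminal effector and exhausted list stood higher in KO. Of its 15 genes measured with enough UMIs, 9 were past 1.5-fold up and 1 down for KO isotype over WT isotype (median log2 0.80), and 9 up and 0 down for KO anti-PD1 over WT anti-PD1 (median 0.89). Over all genes 276 of 9353 and 356 of 9343 were past 1.5-fold up. The 7 members had medians of −0.07 and −0.05 in the same comparisons. The difference rests on single libraries and was not tested.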
